A study of Mus musculus with 41 samples.

Results

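The 41 genes described here act in germ cells and meiosis. Many genes of this kind have promoters that are methylated in somatic cells, which was not examined here for the 41. They were chosen by symbol as a list of germline, piRNA-pathway and meiosis genes and looked up among the 24028 gene symbols of 13 RNA-seq libraries, where all 41 were found. The libraries came from androgenetic haploid embryonic stem cells (AG-haESCs), which are mouse cells that carry a single genome of sperm origin. The study asked how the culture medium bears on paternal imprints, and of its 41 samples the methylation and chromatin samples were not analysed here.

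All lines carried the C57BL/6 strain label, were grown on feeder fibroblasts, and were enriched for haploid cells by sorting. Wild-type 2i-14 cells were kept in 2i/L, a serum medium with LIF, the Mek1/2 inhibitor PD0325901 and the Gsk3 inhibitor CHIR99021, and gave 3 libraries at p18, p39 and p50. Wild-type TSa2i/L cells were derived in serum with the Src inhibitor CGP77675 and CHIR99021 (a2i/L) and then kept in the same inhibitors without serum (SF/a2i/L). The line TSa2i-14 was sampled at p22, p47 and p54, and the line TSa2i-C57 at p9 and p58. TSa2i-14 has an actin-EGFP background, which is not given for TSa2i-C57. 2i-O48 cells lack the imprint control regions H19-DMR and IG-DMR. 2i-O48-TKO cells lack both of them and the gene H19. Each was sampled in 2i/L with 1 library. The labels give no passage for these lines. A further library of each of these 3 lines, wild-type 2i-14 included, was made 5 passages after a switch from 2i/L to SF/a2i/L. Several libraries of 1 line are successive cultures rather than separate derivations, so p-values measure the spread between these cultures. Line and genotype cannot be told apart for the DMR-deleted lines, nor medium and line for TSa2i/L against 2i/L. The same holds for line and the actin-EGFP background in TSa2i-C57 against TSa2i-14. By its name 2i-O48-TKO came from 2i-O48, so these lines may share a derivation and are not taken as independent.

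Values are FPKM, the fragments mapped to a gene scaled by transcript length and library depth, a scale on which levels of genes of different length can be compared. The depth estimated from the smallest values was 12700000 to 19900000 fragments, so 3 fragments on a 1 kb transcript were worth 0.151 to 0.236 FPKM, for counting error only. All 7 embryonic stem cell markers were above 0 in every library, with a summed level of 351 to 793 FPKM, and 1 of them, Nanog, fell after the switch of medium described further on (log2 difference -0.93, adjusted p = 0.0483). The 6 spermatid markers, which would show ongoing sperm formation, summed to at most 2.25 FPKM. The 15 fibroblast markers were highest in TSa2i-14 p54, where they summed to 141 FPKM, followed by 57.3 for 2i-14 p39, 44.8 for TSa2i-C57 p58 and 11 for TSa2i-14 p22. Elsewhere they summed to 1.69 to 4.56. The 5 markers of 2-cell-like cells, a rare state of embryonic stem cell cultures, reached a sum of 118 FPKM at p18 and 105 at p50 of 2i-14, 31.1 in 2i-O48-TKO and at most 1.74 elsewhere.

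Germ cells are set apart from the body's other cells by a group of genes that act in the piRNA pathway, in which small RNAs bound to Piwi proteins silence transposons, and in meiosis, in which homologous chromosomes pair and exchange DNA. Many of these genes have promoters of intermediate CpG content that are methylated outside the germline and lose this mark when primordial germ cells erase DNA methylation. In embryonic stem cells a Polycomb complex, PRC1.6, also holds many of them down, and its subunits E2F6 and the MGA and MAX pair bind short sequence motifs.

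Promoters of 300 bases around the transcription start were read from RefSeq (GRCm38.p6) and matched 35 of the 41 members with 42 promoters. CpG dinucleotides numbered 20 in the median member promoter, with a range of 3 to 48, and 7 in the median of all 32851 promoters. A count of 20 or more was found in 26.5% of all promoters. TCCCGC, a core of E2F sites searched on both strands, was present in 19 of the 42 member promoters (45.2%) and in 20% of all promoters. CACGTG, an E-box that MAX pairs can bind and that reads alike on both strands, was present in 22 member promoters (52.4%) and in 7.15% of all promoters. The matches belonged to 17 genes for TCCCGC and 18 for CACGTG, since some genes had more than 1 window. Both motifs contain a CpG, and no comparison with promoters of like CpG content was made. These matches describe the letters of each window only, and the motifs can overlap only by an end base. The following promoters belong to Dazl and Stra8, which fell in TSa2i/L, to Ddx4 and Dmc1, which rose, and to Smc1b, which had the lowest p among the members in the DMR-deleted lines. Capitals mark either motif, on either strand, and each sequence runs 5′ to 3′ along the gene.
Dazl (chr17:50293571-50293870, minus strand): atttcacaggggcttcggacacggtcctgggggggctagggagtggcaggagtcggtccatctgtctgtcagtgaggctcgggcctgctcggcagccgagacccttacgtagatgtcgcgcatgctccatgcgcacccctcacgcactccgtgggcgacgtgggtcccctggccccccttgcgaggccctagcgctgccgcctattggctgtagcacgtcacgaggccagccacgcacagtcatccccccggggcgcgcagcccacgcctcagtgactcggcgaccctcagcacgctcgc
Stra8 (chr6:34920698-34920997, plus strand): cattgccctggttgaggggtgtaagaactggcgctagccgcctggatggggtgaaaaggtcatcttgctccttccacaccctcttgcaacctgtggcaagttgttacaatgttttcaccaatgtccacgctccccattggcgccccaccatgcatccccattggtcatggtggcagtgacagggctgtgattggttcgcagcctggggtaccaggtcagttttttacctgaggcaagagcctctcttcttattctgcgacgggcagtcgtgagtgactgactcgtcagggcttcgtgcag
Ddx4 (chr13:112652261-112652560, minus strand): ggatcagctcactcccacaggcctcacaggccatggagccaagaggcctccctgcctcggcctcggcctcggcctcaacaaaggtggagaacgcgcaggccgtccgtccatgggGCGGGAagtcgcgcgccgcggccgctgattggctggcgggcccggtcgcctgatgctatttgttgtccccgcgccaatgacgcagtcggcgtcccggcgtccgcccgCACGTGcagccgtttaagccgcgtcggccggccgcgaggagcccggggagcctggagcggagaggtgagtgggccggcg
Dmc1 (chr15:79605060-79605359, minus strand): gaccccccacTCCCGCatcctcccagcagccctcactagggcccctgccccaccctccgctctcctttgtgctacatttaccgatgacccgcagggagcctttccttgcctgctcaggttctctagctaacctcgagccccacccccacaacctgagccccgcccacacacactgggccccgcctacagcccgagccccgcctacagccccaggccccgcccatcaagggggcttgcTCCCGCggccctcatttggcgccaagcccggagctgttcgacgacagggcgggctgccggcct
Smc1b (chr15:85131908-85132207, minus strand): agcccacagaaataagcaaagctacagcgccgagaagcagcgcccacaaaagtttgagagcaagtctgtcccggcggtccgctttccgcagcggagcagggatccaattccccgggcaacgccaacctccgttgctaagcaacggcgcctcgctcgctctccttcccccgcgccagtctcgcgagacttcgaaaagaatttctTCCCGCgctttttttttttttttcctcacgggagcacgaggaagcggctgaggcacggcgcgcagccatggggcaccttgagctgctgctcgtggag
The Dazl window held 28 CpG and neither motif, and that of Stra8 held 10 CpG and neither motif. The Ddx4 window held 38 CpG, 1 TCCCGC and 1 CACGTG. The Dmc1 window held 18 CpG and 2 TCCCGC matches, and the Smc1b window 29 CpG and 1 TCCCGC match.

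**Figure D1:**
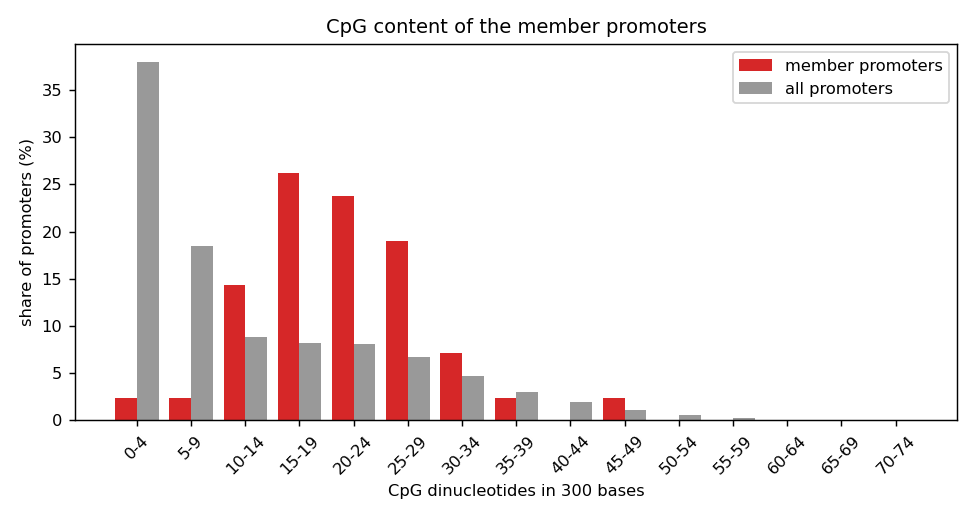
Share of promoters (%, y axis) by the number of CpG dinucleotides in 300 bases (x axis) for the 42 member promoters (red) and all 32851 promoters (grey). Bins of 15 to 19 and 20 to 24 CpG hold 26.2% and 23.8% of the member promoters, and the bin of 0 to 4 holds 38.0% of all promoters and 2.38% of the members'.

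Most of the list was detected, and the methylation of its promoters was not analysed here. Of the 41 members, 32 (78.0%) had at least 1 FPKM in at least 3 libraries, against 44.7% of all symbols, and 18 had at least 1 FPKM in all 13. The mean was at least 10 FPKM for 12 members, 1 to 10 FPKM for 20, and under 1 FPKM for 9. Syce2, a protein of the central element of the synaptonemal complex, was the highest by its median, with 168 to 373 FPKM. Tex19.1, which restrains retrotransposons in germ cells and placenta, had 69.8 to 271 FPKM. Rpl10l, a testis retrogene of the ribosomal protein Rpl10, had 36.9 to 471 FPKM. Reads of Rpl10l and its parent gene, and of Tuba3a and its near copy Tuba3b, may have been shared, so the levels of both members are uncertain.

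The 9 members that reached 1 FPKM in no library were mostly piRNA pathway genes, of which 10 of 16 were detected. They were the Piwi protein Piwil1, the helicase Mov10l1, the Tudor proteins Tdrd1, Tdrd5, Tdrd6 and Tdrd9, the axis protein Sycp2, and the recombination genes Spo11 and Mei1. Spo11, the enzyme that makes the DNA breaks of meiosis, was listed at 0 in 11 libraries and at no more than 0.0848 FPKM in the others, whereas Dmc1, the recombinase that acts on those breaks, had 6.69 to 25.2 FPKM. All 5 germ cell regulators and all 3 meiotic cohesin subunits were detected.

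**Figure D2:**
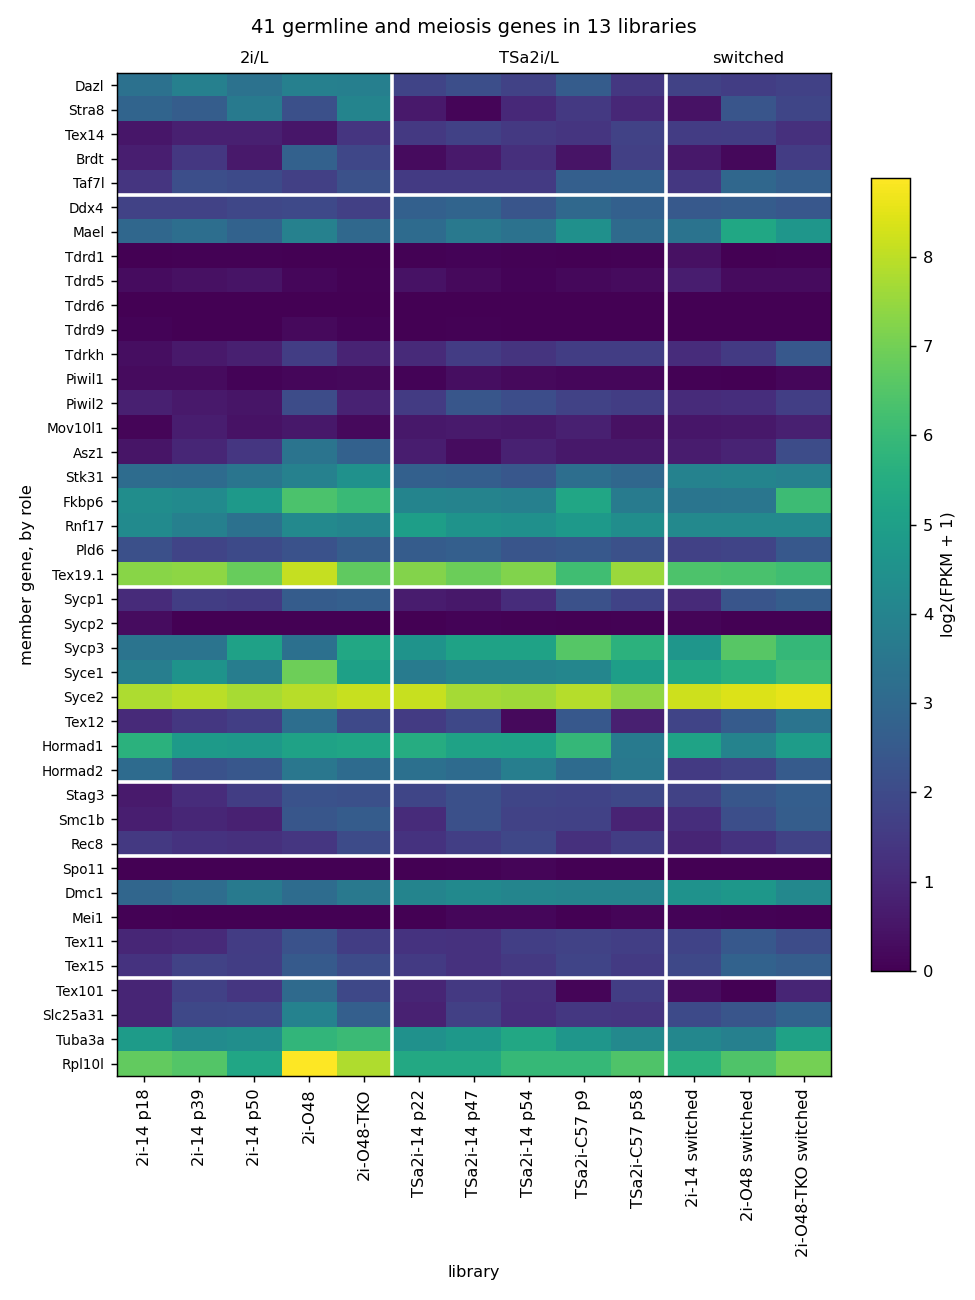
log2(FPKM + 1) (colour) of the 41 members (y axis, grouped by role with white lines) in the 13 libraries (x axis, grouped as 2i/L, TSa2i/L and switched). Syce2, Tex19.1 and Rpl10l are bright across the libraries, the 9 members that reached 1 FPKM in no library form dark rows, and Rpl10l is brightest in 2i-O48 at 471 FPKM.

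The comparison of 5 TSa2i/L with 3 2i/L wild-type libraries asked which members differ with the medium in which the lines were derived and kept. Dazl and Stra8, which act at the entry into germ cell differentiation and meiosis, fell in TSa2i/L. The piRNA pathway genes Ddx4, Piwil2 and Tdrkh, the cohesin gene Stag3, the recombinase gene Dmc1 and Tex14 rose. Of 31 members tested, 6 rose and 2 fell (limma on log2(FPKM + 1), Benjamini-Hochberg adjusted p under 0.05 over 10387 genes), beside 5.72% of all genes tested that rose and 1.85% that fell. Of the 19 members at 1 FPKM or more in every library, 11 were higher and 8 lower (10 and 9 with median centring or quantile normalization), with a median log2 difference of 0.15, beside 56.3% of genes higher and a median of 0.05. Tex14, Tdrkh, Piwil2 and Smc1b passed the filter of 1 FPKM in 3 libraries through TSa2i/L libraries alone, so a higher level there was a condition of their being tested. Without that filter Dazl, Stra8, Ddx4, Piwil2 and Tex14 passed the test, and Tdrkh, Dmc1 and Stag3 had adjusted p-values of 0.0601, 0.0568 and 0.122.

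Dazl encodes an RNA-binding protein that licenses germ cells to form gametes, and lies on chromosome 17 (50418719 to 50432924, minus strand, NCBIM37). At p18, p39 and p50 of 2i-14 its level was 8.87, 13.7 and 9.17 FPKM. At p22, p47 and p54 of TSa2i-14 it was 2.5, 3.38 and 2.4 FPKM, and TSa2i-C57 had 4.95 FPKM at p9 and 1.69 at p58. The groups did not overlap, and the mean in 2i/L (10.6 ± 2.70 FPKM, SD, n = 3) was 3.54-fold that in TSa2i/L (2.98 ± 1.25, n = 5). The log2 difference was -1.57 (SE 0.26, adjusted p = 0.0058).

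Stra8, which retinoic acid induces at the start of meiosis, lies on chromosome 6 (34870163 to 34889342, plus strand). The p18, p39 and p50 libraries of 2i-14 had 6.32, 5.13 and 11.3 FPKM, and those of TSa2i-14 at p22, p47 and p54 had 0.528, 0.0949 and 1.05. TSa2i-C57 had 1.80 FPKM at p9 and 0.991 at p58. All TSa2i/L libraries were below all 2i/L libraries, with a log2 difference of -2.18 (SE 0.31, adjusted p = 0.00255) and an 8.49-fold higher mean in 2i/L. In bulk libraries, fewer cells that express such a gene and less RNA per cell cannot be told apart.

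Tex14, a germ cell protein of the bridges that join spermatocytes, lies on chromosome 11 (87218567 to 87369325, plus strand). It had 0.458, 0.698 and 0.706 FPKM in 2i-14 and 1.8, 2.29, 1.77, 1.61 and 2.4 FPKM in TSa2i/L, the 3 libraries of TSa2i-14 first and then those of TSa2i-C57, by passage. The groups did not overlap, and the log2 difference was 0.87 (SE 0.17, adjusted p = 0.0113).

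Ddx4, the Vasa RNA helicase of germ granules, lies on chromosome 13 (113388541 to 113442518, minus strand). It had 2.37, 2.37 and 2.73 FPKM in 2i-14, and 5.58, 6.29, 4.04, 7 and 5.59 FPKM in the TSa2i/L libraries in the same order. Its lowest TSa2i/L value was above its highest in 2i/L, and the log2 difference was 0.93 (SE 0.19, adjusted p = 0.0153). Piwil2, a Piwi protein that binds piRNAs, lies on chromosome 14 (70772287 to 70828901, minus strand). It had 0.701, 0.513 and 0.430 FPKM in 2i-14 and 1.94, 4.24, 3.25, 2.37 and 2.07 FPKM in TSa2i/L, a mean 5.06-fold higher. This was the highest rise of the 8 called members on the log2 scale, at 1.25 (SE 0.22, adjusted p = 0.00655).

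Tdrkh, a Tudor protein of the outer mitochondrial membrane that takes part in piRNA trimming, lies on chromosome 3 (94217218 to 94236555, plus strand). It had 0.253, 0.514 and 0.734 FPKM in 2i-14 and 1.06, 1.98, 1.51, 2.04 and 2.08 FPKM in TSa2i/L. The groups did not overlap, with a log2 difference of 0.86 (SE 0.19, adjusted p = 0.0226). Rnf17 and Pld6, of the same pathway, also had all TSa2i/L values above all 2i/L values and did not pass the test. Rnf17 had 8.93 to 18.2 FPKM in 2i/L and 19.4 to 30.5 in TSa2i/L (adjusted p = 0.0578). Pld6, a mitochondrial nuclease of piRNA biogenesis, had 2.57 to 3.55 and 3.60 to 5.42 FPKM (adjusted p = 0.165).

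Stag3, a subunit of meiotic cohesin, lies on chromosome 5 (138721468 to 138753621, plus strand). It had 0.571, 1.18 and 2.03 FPKM in 2i-14 and 2.62, 3.51, 2.64, 2.49 and 2.81 FPKM in TSa2i/L, with a log2 difference of 0.80 (SE 0.22, adjusted p = 0.0476). Dmc1, on chromosome 15 (79391930 to 79435529, minus strand), had 6.69, 8.09 and 11.5 FPKM in 2i-14 and 15.2, 17.8, 15.6, 14.8 and 14.6 FPKM in TSa2i/L. Its log2 difference was 0.80 (SE 0.19, adjusted p = 0.0288), and neither gene overlapped between the groups. In all, 8 members had every TSa2i/L value above every 2i/L value and 2 had every value below, beside 11.8% and 4.72% of all genes tested. The 8 include Tex14, Tdrkh and Piwil2, which passed the filter through TSa2i/L libraries alone, so a higher level there was a condition of their being counted. In 2i/L, 2i-O48 had 3.19 FPKM of Piwil2 and 2.06 of Tdrkh, inside the TSa2i/L ranges. 2i-O48-TKO had 0.782 and 0.861, below them. Stag3 had 3.67 and 3.54 FPKM in these lines, above every TSa2i/L value. Ddx4 (2.88 and 2.2) and Dmc1 (7.91 and 11.1) were below every TSa2i/L value in both.

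None of the 7 tested genes of the synaptonemal complex and chromosome axis passed the test. Sycp3, the axis protein that marks meiotic chromosomes, had 9.73, 9.64 and 33.0 FPKM in 2i-14 and 22.4, 33.5, 33.7, 93.2 and 51.3 FPKM in TSa2i/L, with 2i-14 p50 inside the TSa2i/L range (log2 difference 1.43, adjusted p = 0.0871). Hormad2 had 3.72 to 7.59 FPKM in 2i/L and 7.55 to 12.9 in TSa2i/L (adjusted p = 0.0774).

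The 2-cell-like markers summed to 1.74 to 118 FPKM in 2i/L and to at most 0.315 in TSa2i/L, with 2 to 5 of the 5 at 0 in TSa2i/L and at most 1 at 0 in 2i/L. With 2i-14 p18 and p50 left out, a choice made after seeing the markers, 2i-14 p39 alone stood for 2i/L, with its spread taken to be that of TSa2i/L, and no member passed the test. Dazl then had a log2 difference of -1.94 (adjusted p = 0.0613) and Stra8 one of -1.76 (adjusted p = 0.104). Without the 3 libraries richest in fibroblast markers, Stra8 alone of the members passed the test (-2.5, adjusted p = 0.0102), beside 229 of 10310 genes. Dazl had -1.15 in that fit (adjusted p = 0.0949). The part of either marker set in these differences was not tested. When any 1 library was left out, Dazl, Stra8 and Piwil2 stayed under the threshold. Tex14 missed it only in the fit without 2i-14 p18 (0.80, adjusted p = 0.0509). Ddx4 missed it without 2i-14 p18 (0.90, adjusted p = 0.0505) or p39 (0.90, adjusted p = 0.0612). Tdrkh missed it without 2i-14 p18, 2i-14 p39 or TSa2i-14 p47 (adjusted p = 0.0904, 0.0751 and 0.0527). Dmc1 missed it without 2i-14 p18, 2i-14 p39, TSa2i-14 p47 or TSa2i-14 p54 (adjusted p = 0.101, 0.104, 0.068 and 0.0615). Stag3 passed it only without 2i-14 p50 (adjusted p = 0.0265), and in the other 7 such fits its adjusted p reached 0.171. Without 2i-14 p18, Hormad2 and Rnf17 passed it (adjusted p = 0.0365 and 0.0364), as did Sycp3 without 2i-14 p50 (adjusted p = 0.0319).

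**Figure D3:**
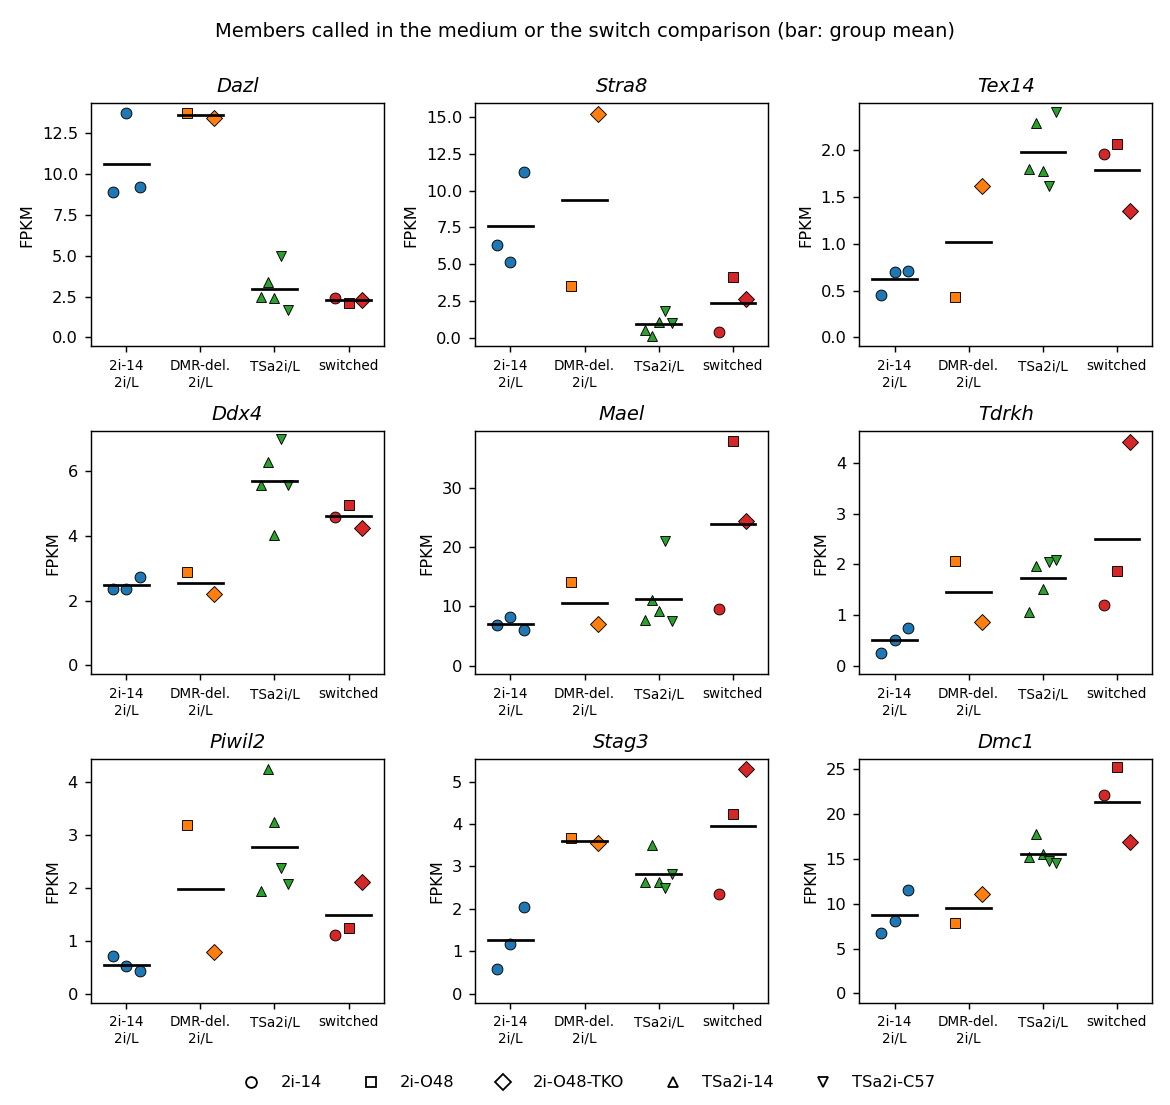
FPKM (y axis) of the 9 members called with the medium or the switch, 1 panel a gene, in 2i-14 in 2i/L (3 libraries), the DMR-deleted lines in 2i/L (2), TSa2i/L (5) and switched cultures (3), with a bar at each group mean and symbols for the line. Dazl lies at 8.87 to 13.7 FPKM in all 5 libraries in 2i/L and at 1.69 to 4.95 in the other 8.

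The switch of 3 lines from 2i/L to SF/a2i/L asked which members move in cells that change medium within a line. Dazl fell and Mael rose, and no other member passed the test. Of 32 members tested, 1 rose and 1 fell (limma with the line as a block, 9759 genes tested), beside 2.22% of all genes tested that rose and 4.66% that fell. By direction alone, 7 members were higher and 10 lower in all 3 pairs, beside 19.4% and 29.4% of all genes tested, and 15 were mixed. The labels do not say at which passage 2i-14 was switched, and p50 was taken as its control. This library also serves in the TSa2i/L comparison, as do 2i-O48 and 2i-O48-TKO in the comparison of DMR-deleted with wild-type lines, so these results are not independent.

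Dazl fell from 9.17 to 2.4 FPKM in 2i-14, from 13.7 to 2.09 in 2i-O48 and from 13.4 to 2.31 in 2i-O48-TKO. The switched and unswitched values did not overlap, and the log2 difference was -1.98 (SE 0.23, adjusted p = 0.0106). Without the filter on low values no gene passed the test, and Dazl had an adjusted p of 0.143. Mael, a germ granule protein needed for transposon silencing, lies on chromosome 1 (168131516 to 168168875, minus strand). It rose from 5.99 to 9.51 FPKM in 2i-14, from 14.1 to 37.9 in 2i-O48 and from 6.94 to 24.3 in 2i-O48-TKO, with a log2 difference of 1.21 (SE 0.26, adjusted p = 0.0487). The groups overlapped, since 2i-O48 in 2i/L was above switched 2i-14. Mael had 6.85 and 8.17 FPKM in 2i-14 p18 and p39 and 7.68, 11, 9.25, 20.9 and 7.48 FPKM in the TSa2i/L libraries. Without the 2i-O48-TKO pair its adjusted p was 0.304, and without the line block it was 0.16. Without the filter on low values it was 0.181.

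The other called members of the TSa2i/L comparison did not pass the test after the switch. In simulated data drawn without pairing of lines, this test recovered 4.48% of genes changed by a log2 of 1. Recovery with paired lines was not simulated, and a missing call does not show that a gene was unchanged. Stra8 went from 11.3 to 0.353 FPKM in 2i-14 and from 15.2 to 2.64 in 2i-O48-TKO, but from 3.48 to 4.09 in 2i-O48 (log2 difference -1.72, adjusted p = 0.134). Without the 2i-O48 pair its log2 difference was -2.67 (adjusted p = 0.00108). Ddx4 went from 2.73 to 4.60 FPKM in 2i-14, from 2.88 to 4.97 in 2i-O48 and from 2.2 to 4.26 in 2i-O48-TKO, so the groups did not overlap (0.64, adjusted p = 0.0987).

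Dmc1 went from 11.5 to 22.1, from 7.91 to 25.2 and from 11.1 to 16.9 FPKM in the same lines, again without overlap (1.00, adjusted p = 0.0671, and 0.0375 without the block). Tex14 went from 0.706 to 1.96 FPKM in 2i-14, from 0.435 to 2.06 in 2i-O48 and from 1.61 to 1.35 in 2i-O48-TKO. Tdrkh went from 0.734 to 1.20, from 2.06 to 1.87 and from 0.861 to 4.43 FPKM in these lines. Neither had the same direction in all 3 lines.

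Piwil2 went from 0.430 to 1.11 FPKM in 2i-14, from 3.19 to 1.24 in 2i-O48 and from 0.782 to 2.11 in 2i-O48-TKO. Stag3 went from 2.03 to 2.34, from 3.67 to 4.24 and from 3.54 to 5.29 FPKM. Stag3 was thus higher in all 3 switched cultures and its groups overlapped. Over all 8 libraries in SF/a2i/L and all 5 in 2i/L, Dazl was lower, and Ddx4 and Dmc1 were higher, without overlap, as were 1.92% of genes lower and 2.81% higher.

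Members lower in every pair included genes of several roles. Tex101, a surface protein of male germ cells, went from 1.65 to 0.239 FPKM in 2i-14, from 7.46 to 0 in 2i-O48 and from 2.79 to 0.884 in 2i-O48-TKO (log2 difference -1.73, adjusted p = 0.0605, and 0.043 without the block). It passed the filter of 1 FPKM in 3 libraries through the unswitched libraries alone, so a higher level there was a condition of its being tested in this comparison and in the alternatives that call it. Hormad2 went from 4.26 to 1.82, from 10.4 to 2.33 and from 7.54 to 4.80 FPKM (-1.08, adjusted p = 0.0726). Tuba3a, a testis alpha-tubulin, went from 20.1 to 16.2, from 56.0 to 13.7 and from 65.8 to 33.7 FPKM (-1.06, adjusted p = 0.105). In each of them the difference was largest on the log2 scale in 2i-O48.

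Across members tested, 12 were lower by a log2 of 1 or more in 2i-O48, against 4 in 2i-14 and 3 in 2i-O48-TKO, beside 12.1%, 6.42% and 6.41% of all genes tested. In the same lines 5, 1 and 4 members were higher by that much, beside 5.04%, 4.5% and 3.05% of all genes tested. Without the 2i-14 pair, 10 of 32 members tested passed the test, beside 1031 of 9959 genes. Of these members, Mael and Sycp3 rose and Dazl, Asz1, Brdt, Hormad2, Rpl10l, Tex101, Tex19.1 and Tuba3a fell. The pairs left in that fit came from lines that may share a derivation. Without the 2i-O48 pair 5 members passed it, Mael and Syce1 upward and Dazl, Stra8 and Tex101 downward, beside 1461 of 9888 genes. Without the 2i-O48-TKO pair 3 passed it, all downward (Dazl, Fkbp6 and Tex101), beside 311 of 9810 genes. With p18 and p39 of 2i-14 added to the controls 9 members passed it, of which 3 rose and 6 fell, beside 1505 of 10106 genes.

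**Figure D4:**
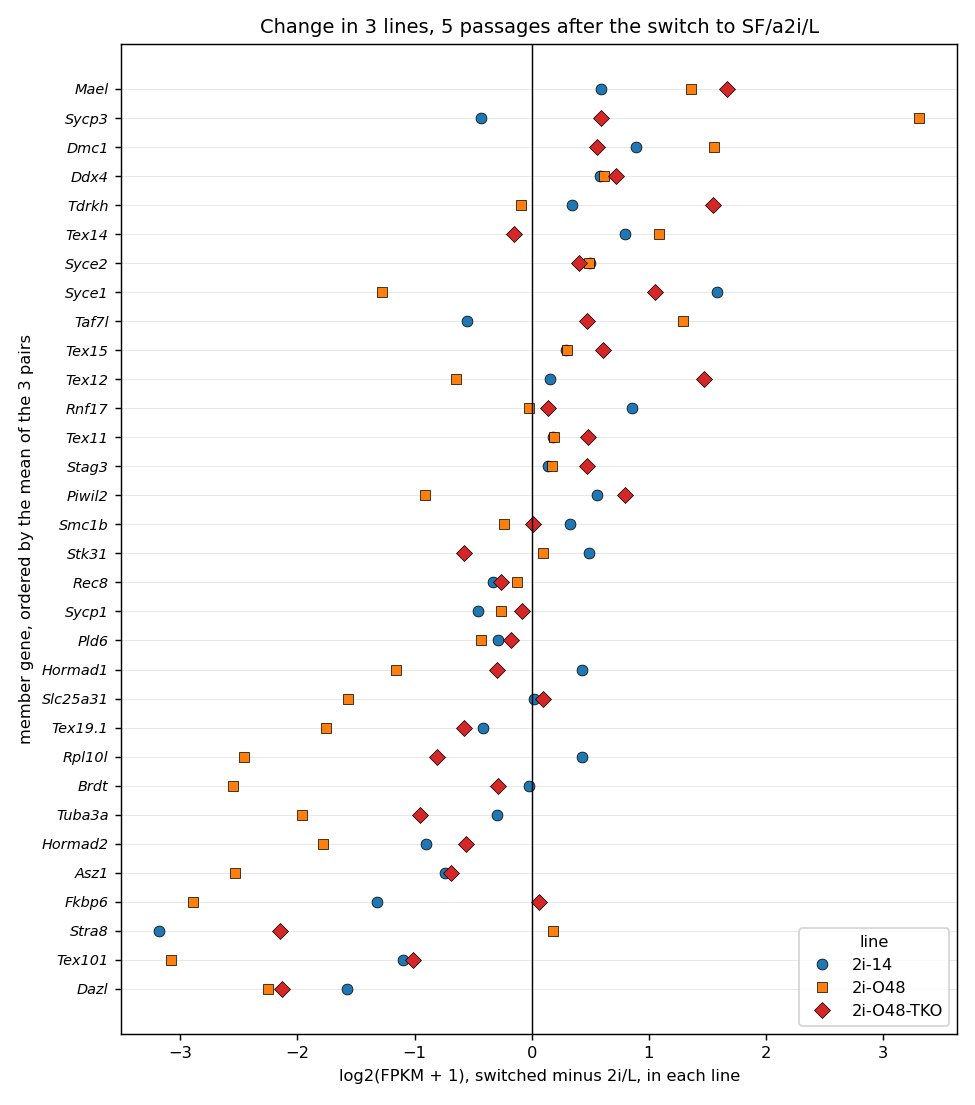
Difference in log2(FPKM + 1) between the switched culture and the same line in 2i/L (x axis) for the 32 members tested (y axis, ordered by the mean of the 3 pairs), with 1 point for each of 2i-14 (circles), 2i-O48 (squares) and 2i-O48-TKO (diamonds). Dazl lies at -1.58, -2.25 and -2.13 and Ddx4 at 0.58, 0.62 and 0.72, while Sycp3 ranges from -0.43 to 3.31.

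No member passed the test between the DMR-deleted lines 2i-O48 and 2i-O48-TKO and wild-type 2i-14 in 2i/L. The values that follow are thus a description of 2 against 3 libraries, and the 2 may share a derivation. Differences were widest for genes of several roles, such as Rpl10l, Asz1 and Syce1, and small for Dazl and Ddx4. Stra8 had 3.48 FPKM in 2i-O48, below the 5.13 to 11.3 FPKM of 2i-14, and 15.2 in 2i-O48-TKO, above them. Its mean log2 difference of 0.06 (SE 0.55) thus averaged opposite departures. The 0 calls among 29 members tested stood beside 0.0787% of all genes tested called higher and 0.0394% called lower (limma, 10164 genes, 12 called), and 15 members and 589 genes had an unadjusted p under 0.05. To leave the filter out of the count, members were also taken by a level of at least 1 FPKM in all 5 libraries. Of these, 22 of 22 had a higher mean in the DMR-deleted lines (20 with median centring, where Stra8 and Ddx4 were lower, and 21 with quantile normalization), with a median log2 difference of 0.40, beside 55.6% of 8683 genes and a median of 0.03. Over the 40 members above 0 in any of these libraries, 33 were higher and 7 lower. Both DMR-deleted libraries were above all 3 of 2i-14 for 16 of the 29 tested members and below for 0, beside 11.9% and 7.74% of all genes tested. The 16 include Smc1b, for which a higher level in the DMR-deleted libraries was a condition of being tested.

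Asz1, an ankyrin-repeat protein of germ granules, had 0.413, 0.915 and 1.66 FPKM in 2i-14, in order of passage, against 9.8 in the 2i-O48 and 5.8 in the 2i-O48-TKO library (log2 difference 2.15, SE 0.34, adjusted p = 0.111). Fkbp6, a cochaperone of piRNA loading, had 19.5, 18.2 and 26.2 FPKM in 2i-14, 81.3 in the 2i-O48 and 64 in the 2i-O48-TKO library (1.73, SE 0.25, adjusted p = 0.0841). Both genes had higher values in each DMR-deleted library than in any of 2i-14. Stk31, which binds Piwi proteins through a Tudor domain, had 7.59 to 9.97 FPKM in 2i-14, 14 in the 2i-O48 and 21.3 in the 2i-O48-TKO library (0.96, adjusted p = 0.449).

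Smc1b, the meiotic form of the cohesin core subunit, had 0.670, 0.940 and 0.768 FPKM in 2i-14, 4.20 in the 2i-O48 and 5.05 in the 2i-O48-TKO library, the lowest adjusted p among the members (log2 difference 1.65, SE 0.22, adjusted p = 0.0608). It passed the filter through the DMR-deleted libraries alone. Stag3 had 0.571 to 2.03 FPKM in 2i-14 and 3.67 and 3.54 in the deleted lines (1.08, adjusted p = 0.461). Rec8, the third cohesin gene, had 1.36 to 1.81 FPKM in 2i-14, 1.68 in the 2i-O48 and 3.04 in the 2i-O48-TKO library, so its groups overlapped.

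Among the genes of the synaptonemal complex, Sycp1, its transverse filament, had 1.14, 2.08 and 1.87 FPKM in 2i-14, 5.02 in the 2i-O48 and 5.44 in the 2i-O48-TKO library (1.23, adjusted p = 0.204). Syce1, of the central element, had 12.8, 22.8 and 12.5 FPKM in 2i-14, 119 in the 2i-O48 and 32.1 in the 2i-O48-TKO library (1.94, adjusted p = 0.43). Tex12, also of the central element, had 1.06 to 2.13 FPKM in 2i-14 and 8.25 and 2.85 in the deleted lines. Sycp1, Syce1 and Tex12 lay above 2i-14 in both deleted lines, with Syce1 and Tex12 furthest above in 2i-O48. Sycp3 had 9.64 to 33.0 FPKM in 2i-14, 8.75 in 2i-O48, below them, and 39.1 in 2i-O48-TKO, above them. Syce2 had 209 to 250 FPKM in 2i-14 and 242 and 283 in the deleted lines. Hormad2 had 3.72 to 7.59 FPKM in 2i-14 and 10.4 and 7.54 in the deleted lines. Both of these overlapped. Hormad1, which marks unsynapsed axes, had 25.4 to 50.5 FPKM in 2i-14 and 34.0 and 35.9 in the deleted lines, inside the wild-type range.

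Of the other testis genes, Rpl10l had 106, 90.2 and 36.9 FPKM in 2i-14, 471 in the 2i-O48 and 227 in the 2i-O48-TKO library (2.19, adjusted p = 0.262). Slc25a31, the testis form of the mitochondrial ADP/ATP carrier, had 0.913, 2.82 and 2.93 FPKM in 2i-14, 14.3 in the 2i-O48 and 5.42 in the 2i-O48-TKO library (1.69, adjusted p = 0.428). Tuba3a had 28.5, 18.7 and 20.1 FPKM in 2i-14 and 56.0 and 65.8 in the deleted lines (1.42, adjusted p = 0.135). Tex101 and Brdt, a testis bromodomain protein, had 0.881 to 2.29 and 0.508 to 1.74 FPKM in 2i-14. Tex101 had 7.46 and 2.79 FPKM in the deleted lines and Brdt 5.72 and 2.68. None of these 5 genes overlapped between the groups.

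The recombination genes Tex11 and Tex15 lay above 2i-14 by less, with 3.73 and 2.03 FPKM of Tex11 and 4.71 and 3.06 of Tex15 in the deleted lines against 0.923 to 2.01 and 1.49 to 2.40 in 2i-14. Dazl had 13.7 and 13.4 FPKM in the deleted lines and 8.87 to 13.7 in 2i-14, and Ddx4 had 2.88 and 2.2 against 2.37 to 2.73. These ranges overlapped. The fibroblast markers summed to 1.69 and 2.43 FPKM in the deleted lines against 2.44 to 57.3 in 2i-14, and the 2-cell-like markers to 0.275 and 31.1 against 1.74 to 118. Their part in these differences was not tested. When each library was left out in turn, no member was called.

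**Figure D5:**
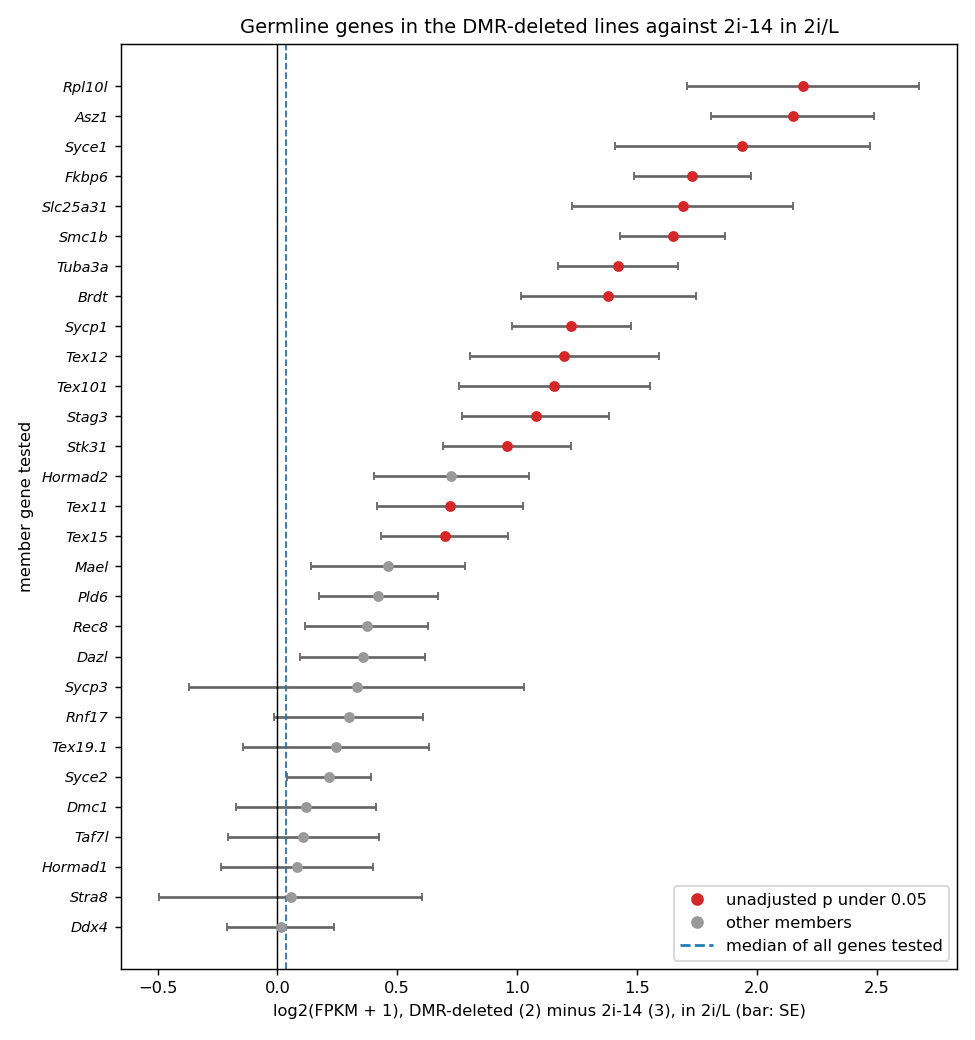
Difference in log2(FPKM + 1) between the 2 DMR-deleted lines and the 3 libraries of 2i-14 in 2i/L (x axis, bars are SE) for the 29 members tested (y axis), with members at an unadjusted p under 0.05 in red and the median of all genes tested as a dashed line at 0.03. All 29 points lie right of 0, from Ddx4 at 0.01 to Rpl10l at 2.19, beside 55.7% of all genes tested. The count was 27 of 29 after median centring, 28 after quantile normalization and 25 without 2i-14 p18. No member passed the test after adjustment.

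Within TSa2i/L, no member and no other gene passed the test for late (p47, p54 and p58) against early passages (p22 and p9) or for TSa2i-C57 against TSa2i-14, in each case beside 0% of 10502 genes tested. At an unadjusted p under 0.05 there were 928 genes and 4 members with passage (Hormad1, Syce2, Brdt and Tex101), and 366 genes and 4 members with line (Taf7l, Sycp3, Sycp1 and Rpl10l). Of these 31 tested members, 4 were higher at all late passages and 4 lower, beside 18.5% and 9.72% of all genes tested. Brdt and Tex101, among the 4 higher, passed the filter of 1 FPKM in 2 libraries through late libraries alone, so a higher level there was a condition of their being tested. Hormad1 had 44.7 and 59.1 FPKM at the early and 33.9, 33.1 and 11.2 at the late passages. The fibroblast markers summed to 11 and 3.01 FPKM at the early and 4.56, 141 and 44.8 at the late passages. Taf7l, an X-linked germ cell relative of the TFIID subunit Taf7, had 1.82, 1.85 and 1.86 FPKM in TSa2i-14 and 5.45 and 5.65 in TSa2i-C57. Sycp1 had 0.582, 0.477 and 1.16 FPKM in TSa2i-14 and 3.64 and 2.44 in TSa2i-C57. For both genes the lines did not overlap. This held for 8 members higher in TSa2i-C57 and for 1 lower, Dmc1, beside 8.39% and 7.55% of all genes tested.

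Few other genes of the same biology passed the test. Among the 7 tested of 8 DNA methyltransferases, cofactors and TET enzymes, and the 17 tested of 18 PRC1.6 subunits and other repressors, none was called in TSa2i/L against 2i/L, after the switch or in the DMR-deleted lines. Of the 8 primordial germ cell genes, Prdm14 and Nanos3 fell in TSa2i/L and after the switch, comparisons that share 2i-14 p50. Prdm14, a regulator of primordial germ cells and of naive pluripotency, had 24.5, 20.6 and 23.5 FPKM in 2i-14 and 16.1, 9.97, 10.2, 7.74 and 13.2 in TSa2i/L (-0.97, adjusted p = 0.0238). It missed the threshold without any 1 library of 2i-14 (adjusted p = 0.0711, 0.0588 and 0.0725 without p18, p39 and p50) and without p47 or p54 of TSa2i-14 (0.0572 and 0.0513), and passed it in 8 of 17 alternatives. After the switch it went from 23.5 to 9.54, from 39.5 to 11.3 and from 23.4 to 9.43 FPKM (-1.39, adjusted p = 0.0203, and 0.0741 without the 2i-O48-TKO pair). Nanos3, which protects primordial germ cells, had 2.33, 5.33 and 6.90 FPKM in 2i-14 and 0.620 to 1.61 in TSa2i/L (-1.36, adjusted p = 0.0164), and its log2 difference after the switch was -1.57 (adjusted p = 0.0476). It missed the threshold in TSa2i/L without p39 or p50 of 2i-14 (adjusted p = 0.0677 and 0.0674), and passed it in 5 of 9 alternatives after the switch. Of the 9 tested of 20 further meiosis and piRNA genes, none was called in TSa2i/L and only Gtsf1, a piRNA pathway zinc finger protein, fell after the switch (-1.83, adjusted p = 0.0321, and 0.126 without the block). It went from 17 to 1.58 FPKM in 2i-14, from 28.1 to 10.0 in 2i-O48 and from 43.4 to 17.2 in 2i-O48-TKO. In the DMR-deleted lines none of these lists had a call. The 9 tested further meiosis and piRNA genes were mixed, with 5 differences above 0 and 4 below, from -0.68 for Mnd1 to 1.40 for Gtsf1. The 8 primordial germ cell genes had 4 above 0 and 4 below, from -0.96 for Ifitm3 to 0.89 for Dppa3.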

How the data were processed

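The members and lists were chosen with earlier results of these data known. For RNA-seq of sorted haploid cells, whose cDNA was amplified at full length, the authors deposited FPKM values made with TopHat and Cufflinks on mm9. The submitters' processing notes list Bowtie2 2.2.2, TopHat2 2.0.11 and Cufflinks 2.2.1. The annotation used is not given in the sources used here. FPKM values are not counts. The 24525 rows of each library were summed to 24028 symbols, and coordinates came from GENCODE vM1 (NCBIM37).

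The tests used limma (3.58.1, R 4.3.3) on log2(FPKM + 1), with an intensity trend and Benjamini-Hochberg adjustment over all genes tested at 0.05. The pseudocount understates changes of low genes. Genes needed 1 FPKM in 3 libraries (medium and switch) or 2 (other comparisons). Members at 1 FPKM in 3 libraries, or called, were named, and called members are given in every library. Alternatives covered the pseudocount (0.1), the filter, median centring, quantile normalization, the block, the choice of libraries and leaving out each library or pair. Those without 2i-14 p18 and p50, and with 8 against 5 libraries, were chosen after seeing the data. The pairing of the switched cultures comes from the line in the labels. Deviations of switched and unswitched cultures of a line from their group means correlated across genes at 0.172 for 2i-14, -0.141 for 2i-O48 and 0.358 for 2i-O48-TKO. Depth was estimated from 3737 genes. Tests were checked on simulated data, drawn without pairing of lines, with changes added to genes of higher level. A log2 change of 1 was recovered for 61.2% of such genes in TSa2i/L against 2i/L and for 4.48% in the switch. The share was 13.4% for DMR-deleted against wild-type lines and 22.4% for passage and for line. In the simulated switch, spread between lines counted as noise that the line block could not remove. The 4.48% may thus not hold for real pairs. A missing call therefore does not show that a gene was unchanged. Other steps used Python 3.11.15, numpy 2.4.6, pandas 2.3.3 and matplotlib 3.10.9.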

Additional observations from a re-analysis of the deposited data

Results flagged for a closer look

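3 of the 32 detected members had a TSa2i/L library far from the other 4. Chance would give about 1.6 for normal values of like libraries. These libraries come from the lines TSa2i-14 and TSa2i-C57 and the values are raw FPKM, so that figure is only a rough guide. Mael was 20.9 FPKM in TSa2i-C57 p9 against 7.48 to 11 in the others (gap of 0.74 of the range). Fkbp6 was 37.1 FPKM in TSa2i-C57 p9 against 12.1 to 15 (0.883). Syce1 was 30.7 FPKM in TSa2i-C57 p58 against 11.8 to 16 (0.776).

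4 of the 32 members tested in the switch had one direction in 2i-14 and the opposite in both DMR-deleted lines, as did 19.8% of all genes tested, and the difference was not tested. Taf7l differed by -0.55 on the log2 scale in 2i-14, by 1.29 in 2i-O48 and by 0.47 in 2i-O48-TKO. In the same order Sycp3 differed by -0.43, 3.31 and 0.59, Hormad1 by 0.43, -1.16 and -0.30, and Rpl10l by 0.43, -2.46 and -0.81. The direction in 2i-14 depended on its control passage. Sycp3 would have differed by 1.23 from p18 and 1.24 from p39, and Rpl10l by -1.06 and -0.83. Taf7l would have differed by 0.08 from p18 and -0.71 from p39, and Hormad1 by -0.53 and 0.31.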

How the results depend on the processing

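In TSa2i/L against 2i/L, 8 members were called. The count was 5 without the filter, 5 with median centring, 4 with quantile normalization, 4 with TSa2i-14 alone, 1 without the libraries richest in fibroblast markers and 0 without 2i-14 p18 and p50, where 11 members had an unadjusted p under 0.05 with 1 library left in 2i/L. It was 4 to 9 when 1 library was left out. Median centring moved the median of all genes from 0.07 to -0.05, and the calls over all genes from 594 higher and 192 lower to 359 and 280. With 8 libraries in SF/a2i/L against 5 in 2i/L, Hormad2 had a log2 difference of -0.04 in place of 0.79. In that fit 6 members were called, beside 1069 of 10164 genes. Sycp3 was gained, and Piwil2, Tdrkh and Stag3 were lost.

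After the switch, 2 members were called, beside 672 of 9759 genes. The count was 1 with a pseudocount of 0.1 (574 of 9759 genes) and 0 without the filter (0 of 18837 genes called, 3206 and 11 members at an unadjusted p under 0.05). It was 9 with all passages of 2i-14 (1505 of 10106 genes) and 3 to 10 when 1 pair was left out (311 to 1461 genes). With no replicate block it was 3 (778 of 9759 genes), with Mael lost and Dmc1 and Tex101 gained. Median centring moved the median of all genes from -0.09 to 0.07 and the calls from 217 higher and 455 lower to 386 and 314. Dazl was called in 8 of 9 alternatives after the switch and in 15 of 17 in TSa2i/L against 2i/L. The other 3 comparisons had 0 members called under every alternative run. In DMR-deleted against wild-type lines, 27 of 29 tested members were higher with median centring and 28 with quantile normalization. Without 2i-14 p18, p39 or p50, 25, 26 and 28 of 29 were higher. Without 2i-O48 it was 27 of 30, and without 2i-O48-TKO 27 of 31. Except where named, the causes of these changes were not tested. FPKM carry no counts, so counting error enters only through the estimated depth.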
